A study of Mus musculus with 2 samples.

Results

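The genes examined were 10 that macrophages use to carry, take up, store and export lipid: Apoe, Lpl, Abca1, Abcg1, Nr1h3, Pparg, Fabp5, Trem2, Gpnmb and Plin2. They were chosen by symbol from the 27998 genes of the count tables, and all 10 were found. The question was whether the other lipid genes, and the nuclear receptors that regulate them, follow the higher Apoe of the library titled cko. That higher Apoe was already known from these tables when the genes were chosen, so its values are a description.

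Leukocytes (CD45+) came from tumors of the Lewis lung carcinoma line (LLC), a transplantable mouse lung cancer, taken 14 days after implantation under the skin. Single-cell RNA-Seq was done on droplets (10x Genomics, 3′ chemistry) with 1 library per genotype, each pooled from 3 mice of the C57/BL6 strain, aged 10 weeks. One genotype was miR-21fl/fl, with loxP sites around the microRNA gene, and the other was LysMCre;miR-21fl/fl. In the latter, Cre is driven from the lysozyme M gene Lyz2, which is active in macrophages, monocytes and granulocytes, so that deletion is limited to such cells and depends on their Lyz2 activity. Both genotypes carried the floxed allele.

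The libraries are called by their titles, wt and cko, because the source descriptions give the genotypes the other way round. A growth protocol also names a macrophage gate, whereas the design text names CD45+ cells alone, and T, NK and B cells were present (203 and 228 cells). Lyz2, whose locus carries Cre, had 19607 CPM (counts scaled to a common total, 1e+06) in monocyte and macrophage cells of the library titled wt and 9220 CPM in that titled cko, which follows the titles. The 2 libraries held 2449 and 2718 cells with medians of 8359 and 8247 UMIs (unique molecular identifiers, 1 per captured RNA molecule) per cell, and 5 barcodes occurred in both. With 1 library per group there is no test and no p-value, and every interval here is a 95% interval of counting error alone.

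Apolipoprotein E, the product of Apoe, carries cholesterol out of macrophages, and the transporters encoded by Abca1 and Abcg1 load it. The nuclear receptor LXRα, encoded by Nr1h3, senses oxidized cholesterol and can activate Apoe, Abca1, Abcg1 and Lpl, while PPARγ, encoded by Pparg, senses fatty acids and can activate Plin2 and Fabp4. TREM2 is a lipid-binding receptor on macrophages, and Gpnmb marks macrophages under lysosomal or lipid load.

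The promoters of Apoe and Plin2 are shown because these genes were higher in the library titled cko in all 8 states described below. Each runs from 250 bases before to 50 bases after a RefSeq start site (GRCm38.p6), and capitals mark the nuclear receptor half-site AGGTCA or its reverse complement TGACCT. The Apoe window is chr7:19699139-19699438 and the Plin2 window is chr4:86670010-86670309, both on the minus strand.
Apoe: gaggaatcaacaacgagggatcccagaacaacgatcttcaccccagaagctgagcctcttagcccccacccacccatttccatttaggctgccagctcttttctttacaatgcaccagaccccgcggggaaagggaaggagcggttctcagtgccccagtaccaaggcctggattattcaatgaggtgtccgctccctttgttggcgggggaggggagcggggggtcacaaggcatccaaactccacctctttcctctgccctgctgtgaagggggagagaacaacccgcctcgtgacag
Plin2: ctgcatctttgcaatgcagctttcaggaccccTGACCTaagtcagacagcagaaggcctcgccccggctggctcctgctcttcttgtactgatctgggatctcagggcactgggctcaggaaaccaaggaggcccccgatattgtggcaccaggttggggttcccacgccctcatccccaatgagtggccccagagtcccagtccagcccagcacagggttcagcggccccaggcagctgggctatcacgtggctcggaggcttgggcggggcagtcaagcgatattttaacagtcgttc
The Plin2 window held 1 half-site and that of Apoe held none. The 7 genes matched had 12 windows, of which 4, from Plin2, Pparg and Trem2, held the half-site, and it occurred in 16.3% of 32851 mouse windows. The paired site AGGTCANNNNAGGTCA, which LXR is known to bind, was in none of the 12 windows of these 7 genes and in 0.0152% of all. AGGTCANAGGTCA, known for PPAR, was also in none of the 12, against 0.0396% of all. Both strands were searched, and the paired sites contain the half-site. Lpl, Abcg1 and Fabp5 were not searched.

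Cells were placed in states by raw UMIs of marker genes, none of them one of the 10 genes. Of the cells kept, 1984 titled wt and 2140 titled cko were monocyte and macrophage cells. Cells with at least 15 UMIs of C1qa, C1qb and C1qc, complement genes of macrophages, were called C1q-high (749 and 946 cells), and the others, with at least 1 UMI of the macrophage growth factor receptor gene Csf1r, C1q-low (1235 and 1194). The C1q-low cells were classical monocyte-like (457 and 446), interferon-high monocyte-like (106 and 78), nonclassical monocyte-like (261 and 284) and other (411 and 386). The C1q-high cells were Ly6c2+ (202 and 168), Vcam1/Ccl8/Folr2+ (185 and 227), Cd300e/Clec4b1+ (118 and 238) and other (244 and 313). In the C1q-high cells the 5 macrophage markers summed to 13473 CPM titled wt and 13916 CPM titled cko. These markers include C1qa, C1qb and C1qc, so the gate itself partly fixes this sum. The T cell markers summed to 13.8 and 14.6 CPM and the 5 neutrophil markers to 719 and 776 CPM over all monocyte and macrophage cells, with no marker of either list at 0. By state the neutrophil markers ranged from 318 to 1670 CPM titled wt and from 379 to 1603 CPM titled cko. They were higher in the library titled cko in nonclassical (560 and 1064 CPM) and Ly6c2+ C1q-high cells (332 and 592 CPM). The part of such RNA in the results was not tested.

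Apoe (chr7:19696109-19699188, GRCm38, minus strand) was the most changed of the 10 genes. Over all monocyte and macrophage cells it had 31915 UMIs and 1589 CPM in the library titled wt, and 74108 UMIs and 3455 CPM in the library titled cko. The log2 ratio, cko over wt, was 1.12 (interval 1.10 to 1.14), the highest among 325 genes whose mean level was 500 CPM or more. The middle 90% of those genes ran from −0.13 to 0.17. Over all 9583 genes with at least 100 UMIs, 21 had a higher ratio.

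Apoe was higher in the library titled cko in all 8 states, as were 7.36% of the 2216 genes with at least 100 UMIs in each state. Of the 10 genes, only Apoe, Fabp5 and Plin2 had that many. The lowest levels titled wt were in nonclassical monocyte-like cells, with 445 CPM against 1299 CPM titled cko. Classical monocyte-like cells had 549 and 1124 CPM, and interferon-high monocyte-like cells had 609 and 797 CPM. Classical and interferon-high cells titled wt, neighbours in this order, had intervals that overlapped (526 to 573 and 562 to 659 CPM). Other C1q-low cells had 1030 CPM titled wt and 2224 CPM titled cko.

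Among C1q-high cells the level was highest in Vcam1/Ccl8/Folr2+ cells, at 4002 and 7232 CPM. Other C1q-high cells had 1803 CPM titled wt and 5326 CPM titled cko, Ly6c2+ cells had 1712 and 3101 CPM, and Cd300e/Clec4b1+ cells had 1501 and 3115 CPM. In the library titled cko the last 2 of these states did not differ beyond counting error. The log2 ratio ran from 0.39 (0.22 to 0.55) in interferon-high cells to 1.55 (1.43 to 1.66) in nonclassical and 1.56 (1.51 to 1.61) in other C1q-high cells. Gated after thinning, which left 25 and 21 interferon-high cells, the log2 ratio was 1.65 in those cells and 0.43 in Cd300e/Clec4b1+ cells, and Apoe was still higher in 8 of 8 states. When both libraries were given the same mix of the 8 states the log2 ratio was 1.05, and the mix alone gave 0.08.

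**Figure D1:**
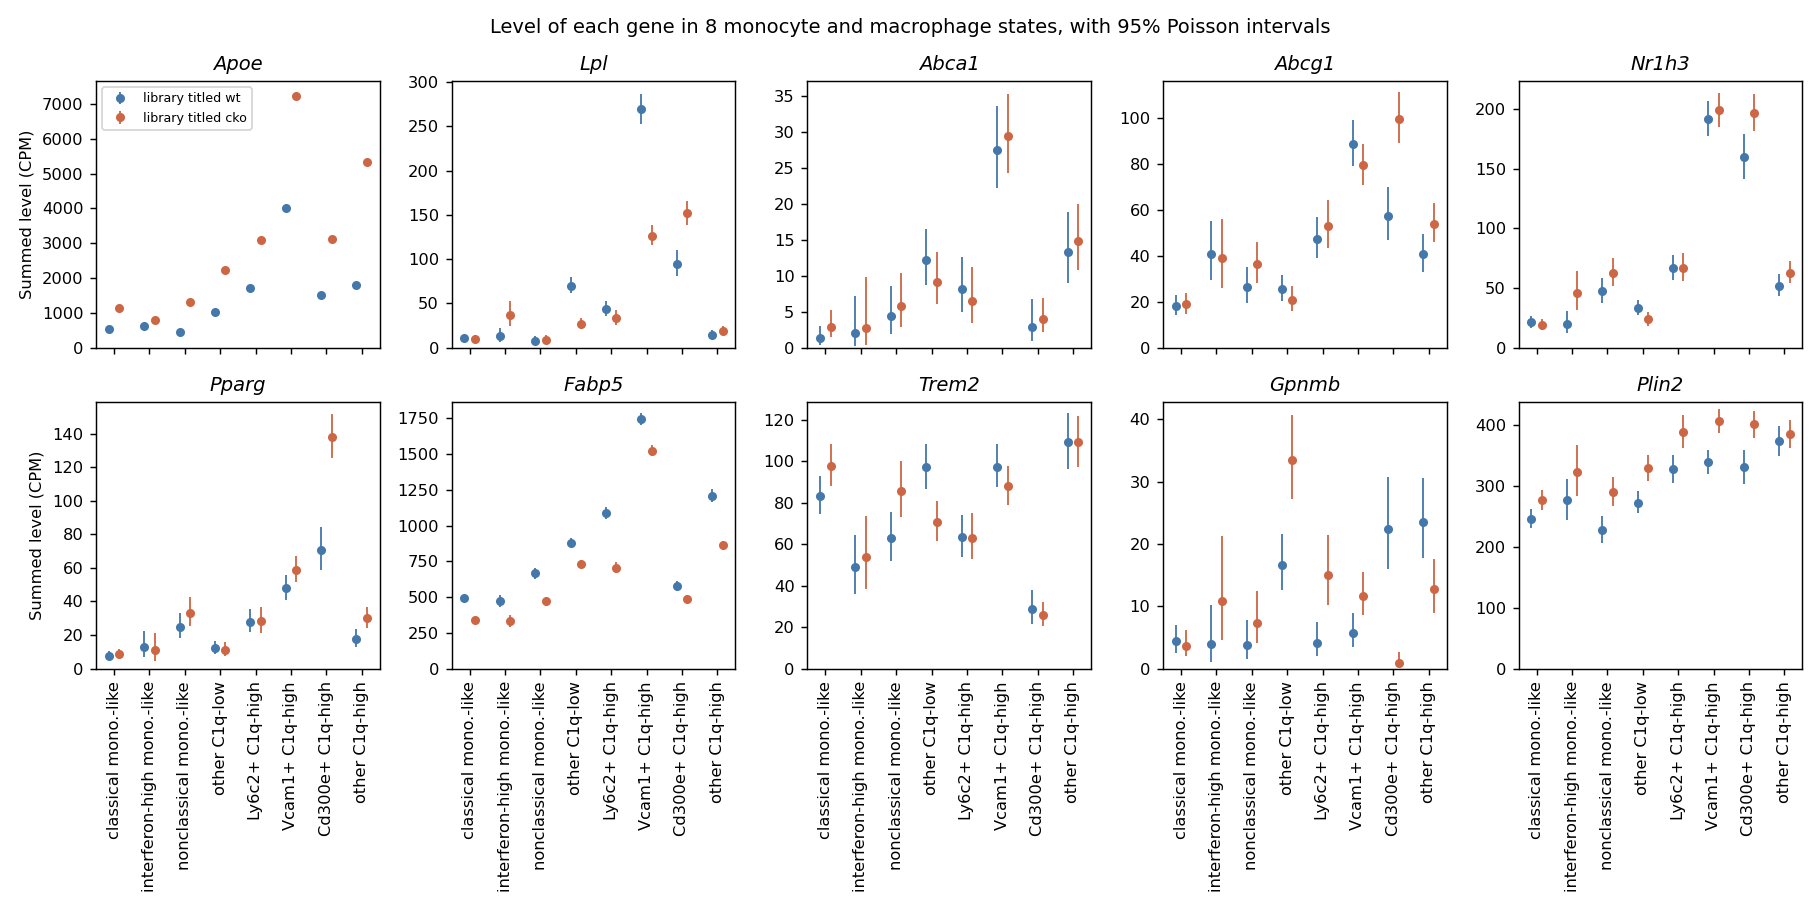
Summed level (CPM, linear axes from 0) of each of the 10 genes in the 8 states, for the library titled wt (blue) and that titled cko (orange), with 95% Poisson intervals. Apoe and Plin2 lie higher in the library titled cko in all 8 states and Fabp5 lies lower in all 8. Lpl, Abca1, Abcg1, Nr1h3, Pparg, Trem2 and Gpnmb differ in both directions.

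In the C1q-high pool, more cells carried Apoe in the library titled cko and those that did carried more. After each cell was thinned to 3000 UMIs, 268 of 749 C1q-high cells titled wt (35.8%, interval 32.3 to 39.3%) and 103 of 946 titled cko (10.9%, 8.97 to 13.0%) had no Apoe UMI. Without thinning, 77.4% and 95.1% of C1q-high cells had a UMI. Again after thinning, among the C1q-high cells with a UMI the mean was 10.6 UMIs titled wt and 16.8 UMIs titled cko. In Vcam1/Ccl8/Folr2+ cells, 38 of 185 and 4 of 227 thinned cells lacked a UMI. C1q-low cells without Apoe were 741 of 1235 (60.0%) and 406 of 1194 (34.0%). Interferon-high cells with a UMI had a mean of 4.54 UMIs titled wt and 4.16 UMIs titled cko.

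**Figure D2:**
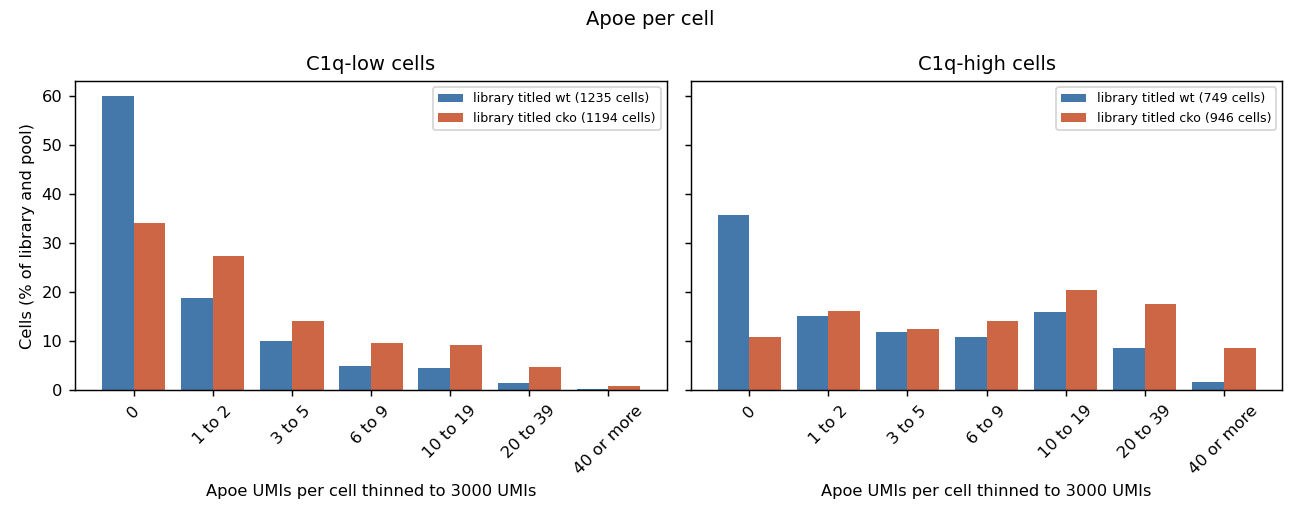
Share of C1q-low (left) and C1q-high cells (right) by the number of Apoe UMIs in cells thinned to 3000 UMIs, for each library. The bar at 0 falls from 35.8% titled wt to 10.9% titled cko among C1q-high cells.

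T, NK and B cells, which should lack Apoe, had 45.5 CPM titled wt and 95.9 CPM titled cko. These are 1.83% and 1.92% of the C1q-high level, where C1qa, C1qb and C1qc had 1.17 to 1.65%. After thinning, 14.3% of lymphoid cells titled wt and 30.3% titled cko had an Apoe UMI, against 64.2% and 89.1% of C1q-high cells. Median depths before thinning were 6091 and 6765 UMIs in lymphoid and 11493 and 10829 UMIs in C1q-high cells. Within 200000 bases of Apoe on chromosome 7, the 13 other genes with at least 100 UMIs had log2 ratios between −0.42 and 0.46. Tomm40, 2125 bases away, had a log2 ratio of 0.04 (−0.07 to 0.15), Apoc1 had 0.46 (−0.07 to 1.00) on 51 and 75 UMIs, and Clptm1 had 0.25 (0.14 to 0.35). Apoc2 had 1.10 (−0.26 to 2.62) on 7 and 16 UMIs and Apoc4 had 1 and 3 UMIs, too few to compare with Apoe.

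Of the 10 genes, 4 were higher by at least 0.25 on the log2 scale over all monocyte and macrophage cells: Apoe, Pparg, Nr1h3 and Abcg1. Of all 9583 genes with at least 100 UMIs, 12.0% were. Plin2, at 0.2488, was just outside. Over the 11 alternative settings Abcg1 fell as low as 0.248, while Plin2 reached 0.254 and Gpnmb 0.44. Lpl and Fabp5 were lower by at least 0.25, against 5.72% of all genes, and Lpl rose to 0.015 under 1 alternative. The median of the 10 log2 ratios was 0.21 and that of all genes was 0.03. In C1q-low cells Apoe and Gpnmb were higher (9.69% of 8090 genes) and Lpl and Fabp5 lower (7.74%). In C1q-high cells Apoe, Pparg and Abcg1 were higher (14.2% of 8603 genes) and Lpl, Fabp5 and Gpnmb lower (6.43%). The interval of Gpnmb there reached 0 (−0.75 to 0.0078). Over the 11 alternatives the values in C1q-high cells came as near to 0 as −0.15 for Gpnmb, −0.097 for Lpl and 0.22 for Abcg1, short of the fold, and Lpl in C1q-low cells reached −0.248. At a fold of 0.5 over all cells, Apoe and Pparg were higher (2.90% of all genes) and none was lower (1.16%).

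**Figure D3:**
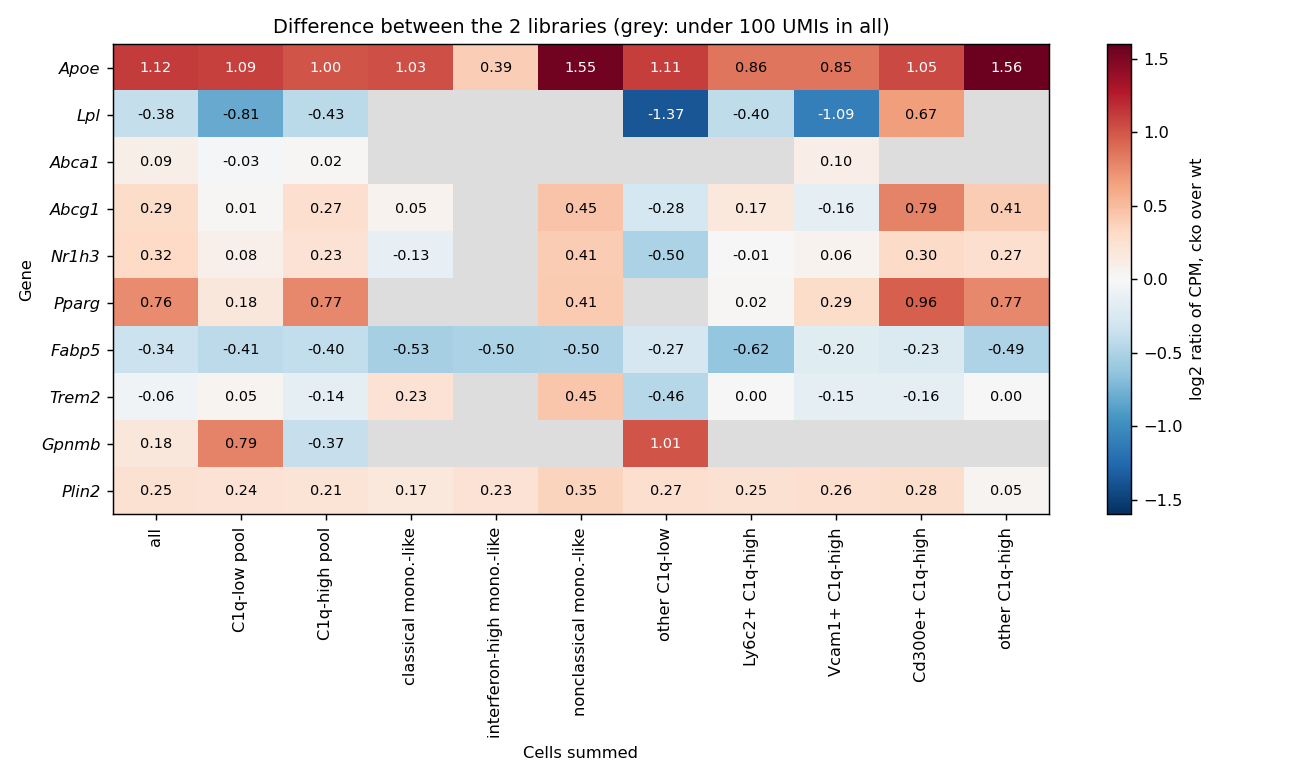
Log2 ratio of CPM, cko over wt, for the 10 genes (rows) over all monocyte and macrophage cells, the C1q-low and C1q-high pools and the 8 states (columns). Apoe is positive throughout, from 0.39 to 1.56, Fabp5 is negative throughout, and grey fields hold under 100 UMIs over both libraries.

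The cholesterol exporters differed less than Apoe. Abca1 had 207 UMIs (10.3 CPM) titled wt and 236 UMIs (11.0 CPM) titled cko, a log2 ratio of 0.09 (−0.18 to 0.37). That interval lies wholly below the log2 ratio of Apoe. Abcg1 had 43.1 CPM and 52.7 CPM, a log2 ratio of 0.29 (0.16 to 0.42), which fell to 0.18 at the common mix of states. Its lymphoid level was 17.2% and 12.9% of the C1q-high level. In Cd300e/Clec4b1+ cells Abcg1 had 57.6 and 99.9 CPM (log2 ratio 0.79, 0.47 to 1.13), and in Vcam1/Ccl8/Folr2+ cells it had 88.8 and 79.6 CPM (−0.16, −0.39 to 0.07).

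Lpl encodes lipoprotein lipase, which frees fatty acids from lipoproteins, and it was uneven among states. It had 76.8 CPM titled wt and 59.3 CPM titled cko (log2 ratio −0.38, −0.48 to −0.27). Averaged over cells in place of summed, its log2 ratio was 0.015. In Vcam1/Ccl8/Folr2+ cells Lpl had 269 CPM titled wt and 127 CPM titled cko, and in Cd300e/Clec4b1+ cells 95.1 and 152 CPM. The markers of these gates moved with Lpl: those of Vcam1/Ccl8/Folr2+ cells summed to 2612 and 1694 CPM within their gate, and those of Cd300e/Clec4b1+ cells to 735 and 946 CPM within theirs. Their part in the result was not tested. The single highest cell held 24.9% of the Lpl UMIs of Cd300e/Clec4b1+ cells titled wt and 6.34% of those titled cko.

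Of the receptors that regulate these genes, Pparg was the more changed. Over all monocyte and macrophage cells it had 528 UMIs (26.3 CPM) titled wt and 956 UMIs (44.6 CPM) titled cko, a log2 ratio of 0.76 (0.61 to 0.92). The ratio was 0.52 at the common mix of states. Cd300e/Clec4b1+ cells, where Pparg was highest, numbered 118 titled wt and 238 titled cko. Within those cells Pparg had 70.9 and 138 CPM (log2 ratio 0.96, 0.67 to 1.26). In C1q-low cells it had 12.8 and 14.5 CPM (0.18, −0.18 to 0.54). The difference between the pools was not tested.

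Nr1h3 had 76.1 CPM titled wt and 94.7 CPM titled cko (log2 ratio 0.32, 0.22 to 0.41). At the common mix of states the log2 ratio was 0.13, and it was 0.06 (−0.09 to 0.21) in Vcam1/Ccl8/Folr2+ cells, where Nr1h3 and Apoe were both highest. Nr1h3 in Cd300e/Clec4b1+ cells had 160 and 197 CPM (0.30, 0.10 to 0.51).

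Fabp5, a fatty acid carrier of the cytoplasm, was lower in the library titled cko in all 8 states, as were 3.38% of the 2216 genes. It had 952 CPM titled wt and 750 CPM titled cko (log2 ratio −0.34, −0.37 to −0.31), with state ratios from −0.62 in Ly6c2+ to −0.20 in Vcam1/Ccl8/Folr2+ C1q-high cells. At cut-offs divided by 2 Fabp5 was lower in 7 of 8 states, with 0.19 in other C1q-low cells. Gated after thinning it was lower in 6 of 8, with 0.027 in Ly6c2+ and 0.23 in Cd300e/Clec4b1+ C1q-high cells. Fabp5 has processed pseudogenes, and how shared reads were counted is not given in the sources used here. Plin2, which coats lipid droplets, had 298 and 354 CPM (0.25, 0.20 to 0.30). Plin2 was higher in all 8 states, by 0.05 to 0.35, and its interval reached 0 in interferon-high and other C1q-high cells. Gated after thinning, Plin2 was higher in 6 of 8 states, with −0.057 in nonclassical and −0.44 in interferon-high cells, and at cut-offs multiplied by 2 in 7 of 8, with −0.38 in interferon-high cells.

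Trem2 had 80.3 CPM titled wt and 77.2 CPM titled cko, a log2 ratio of −0.06 (−0.16 to 0.04). It was 0.45 (0.10 to 0.81) in nonclassical monocyte-like cells and −0.46 (−0.72 to −0.20) in other C1q-low cells. Both values depended on the gates, and were −0.024 in the former at cut-offs divided by 2 and −0.036 in the latter gated after thinning. Gpnmb was sparse, with 208 and 251 UMIs in all (log2 ratio 0.18, −0.10 to 0.45). In C1q-low cells Gpnmb had 8.32 and 14.4 CPM, and in C1q-high cells 12.4 and 9.61 CPM. Lymphoid cells had 8 and 3 Gpnmb UMIs, a level 38.1% and 16.6% of that in C1q-high cells, and the part of free RNA in the Gpnmb values was not tested. A single cell held 51.3% of the 39 Gpnmb UMIs of Cd300e/Clec4b1+ cells titled wt.

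Known LXR target genes were examined as a list of 19, of which 15 had at least 100 UMIs. Of these, 6 were higher by at least 0.25 (Apoe, Apoc1, Mylip, Nr1h3, Abcg1 and Smpdl3a) and Lpl was lower, against 12.0% and 5.72% of all genes, and the median log2 ratio was 0.12 against 0.03 for all genes. Without the genes of the 10, 3 of 10 were higher, none was lower and the median was 0.12. In C1q-high cells 3 of 14 were higher (14.2% of all genes), and the median was 0.037 against 0.033 for all genes. There, without the genes of the 10, 1 of 9 was higher and the median was 0.013. In C1q-low cells 5 of 13 were higher (9.69% of all genes), with a median of 0.08 against 0.02 for all genes, and without the genes of the 10 these were 4 of 8 and 0.22. The 4 were Apoc1 (0.70, 0.11 to 1.31, on 41 and 62 UMIs), Smpdl3a (0.39), Abca9 (0.38, −0.20 to 0.97, on 47 and 57 UMIs) and Srebf1 (0.27, −0.01 to 0.55). The intervals of Abca9 and Srebf1 reached 0. As a mean over cells in place of a sum, over all monocyte and macrophage cells, the median of the whole list was 0.27. Mylip, which degrades the LDL receptor, had 0.33 (−0.02 to 0.68). Scd2 had −0.16 (−0.36 to 0.04) and Arl4c had −0.09. Over all these cells Srebf1, a fatty acid synthesis regulator, had 0.11 (−0.08 to 0.31).

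Among 13 PPAR target genes with enough UMIs, Fabp4 was the only one higher by at least 0.25. Also, 1 gene, not named here, was lower by as much, and the shares of all genes were 12.0% and 5.72%. The median was 0.11 against 0.03 for all genes. In C1q-high cells 1 of 13 was higher (14.2% of all genes) and 2 were lower (6.43%). Fabp4 had 87 UMIs (4.33 CPM) titled wt and 276 UMIs (12.9 CPM) titled cko, a log2 ratio of 1.57 (1.22 to 1.94). The ratio was 1.56 in C1q-low cells and 1.54 in C1q-high cells. Slc25a20 had 0.14, Hadhb −0.09 and Cd36 −0.14, all with intervals that reach 0. Pdk4 had no UMI.

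Over all monocyte and macrophage cells, 5 further lists had medians between −0.01 and 0.02. None of 13 lipid droplet and triglyceride genes passed the fold of 0.25, against 12.0% of all genes higher and 5.72% lower. Their median was 0.01 against 0.03 for all genes. Hilpda had 0.23, Dgat2 0.19, Acsl3 −0.16, and Pnpla2 and Plin3 both −0.04. In C1q-high cells the median of this list was 0.14, and 2 of 13 passed the fold (14.2% of all genes), Dgat2 with 0.58 (0.25 to 0.92) and G0s2 with 0.41 (−0.0018 to 0.83), whose interval reached 0. Of 8 uptake receptors, 1 was lower (5.72% of all genes), Stab1 at −0.35 (−0.50 to −0.21), and the median was −0.01. Scarb1 had 0.07, Lrp1 0.05, Msr1 0.02, Scarb2 −0.17 and Cd36 −0.14. In C1q-high cells 2 of 8 were lower (6.43% of all genes), Stab1 at −0.49 and Cd36 at −0.63 (−1.16 to −0.11), whereas Cd36 had 0.66 (−0.07 to 1.40) in C1q-low cells on 28 and 41 UMIs.

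Of 12 lysosomal lipid genes none passed over all these cells, against 12.0% of all genes higher and 5.72% lower. Lipa had 0.24, Psap 0.21, Npc2 −0.08, Smpd1 −0.10 and Npc1 −0.22 (median 0.02). In C1q-low cells Lipa alone passed, at 0.34 (0.16 to 0.52), against 9.69% of all genes higher. In C1q-high cells Npc1 alone passed, at −0.35 (−0.59 to −0.10), against 6.43% lower. Of 7 TREM2 signalling genes none passed over all these cells, with Plcg2 at 0.11, Hcst at 0.07, Inpp5d at 0.06, Syk at −0.02 and Vav1 at −0.04 (median −0.01). In C1q-high cells Plcg2 alone passed, at 0.27 (0.10 to 0.45), against 14.2% of all genes higher. Of 17 genes of lipid-associated macrophages, 2 were higher, Fabp4 and Itgax (0.31), and 4 lower, against 12.0% and 5.72% of all genes. Atp6v0d2 (−1.33, −1.65 to −1.02), a subunit of the lysosomal proton pump, was lower, as were Lpl, Fabp5 and Ctsl (−0.29), and the median was −0.01. Atp6v0d2, with UMIs in 0.655% and 0.374% of thinned cells, had 276 and 105 UMIs in C1q-low cells (log2 ratio −1.29) and 16 and 19 UMIs in C1q-high cells (−0.03, −1.06 to 1.03).

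**Figure D4:**
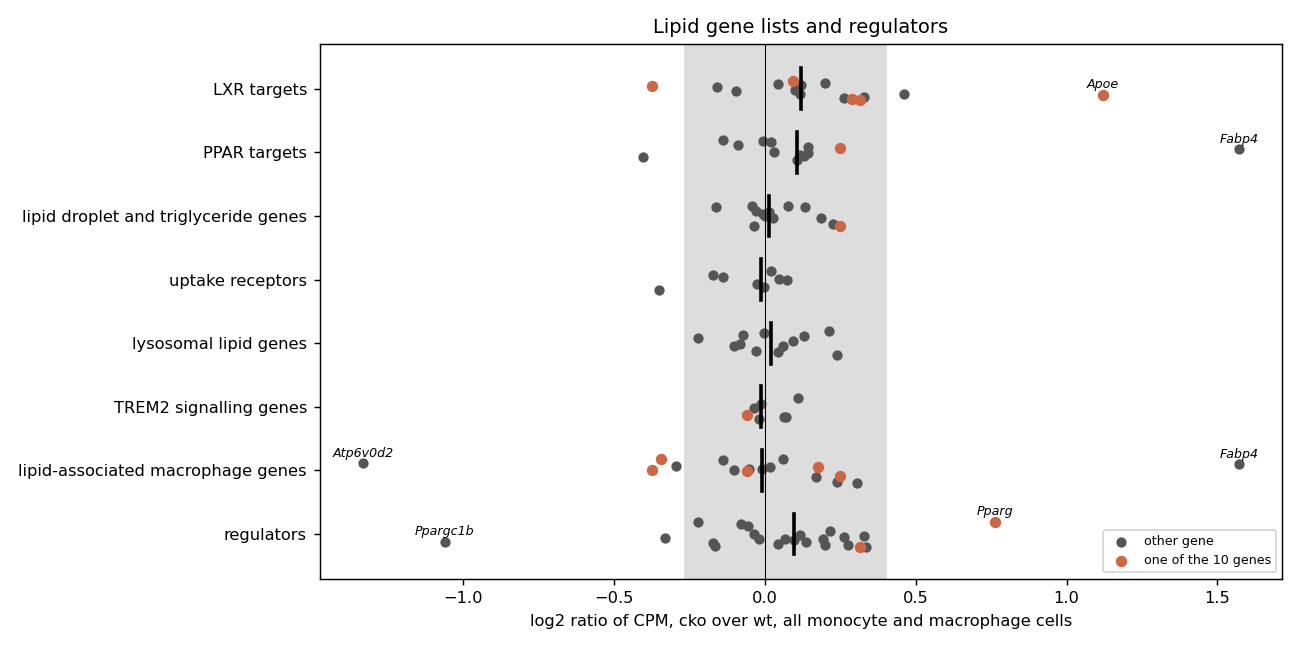
Log2 ratio of CPM, cko over wt, over all monocyte and macrophage cells for each gene with at least 100 UMIs, by list. Bars mark list medians, and the grey band holds the middle 90% of all genes (−0.27 to 0.40). Apoe, Fabp4, Pparg and Apoc1 lie above it, and the interval of Apoc1 reaches 0. Genes below it include Atp6v0d2, Ppargc1b, Lpl, Stab1, Fabp5, Tfec and Ctsl.

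Of 23 regulators with enough UMIs, 6 were higher and 2 lower, against 12.0% and 5.72% of all genes, with a median of 0.10 against 0.03. The higher ones included Pparg, Cebpb (0.33, 0.30 to 0.37), Nr1h3, Nrip1 (0.27) and Tfeb (0.26). Cebpb encodes a transcription factor of monocytes and macrophages, and Tfeb one of lysosome genes. Ppargc1b (−1.06, −1.63 to −0.51), a PPAR coactivator, and Tfec (−0.33, −0.50 to −0.16) were lower. The LXRβ gene Nr1h2 had −0.02 (−0.14 to 0.10), Rxra −0.06 and Rxrb 0.04, the partners of both receptor types. Ppard had 0.20, Srebf1 0.11, Srebf2 0.19, Bhlhe40 0.21, Cebpa 0.13, Spi1 0.07 and Ncor1 0.10. Tfe3 had −0.04, Mitf −0.17, Maf −0.17 and Ncoa1 −0.22. Ppara had no UMI.

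The genes whose level most followed Apoe over 22 profiles, 11 myeloid states in each of 2 libraries, were Tmem37 (r = 0.93), Sepp1 (0.92), Hgsnat (0.89), Ap2a2 (0.88) and Slc43a2 (0.88) among 4586 genes. The profiles share libraries, and r is a description. Over all monocyte and macrophage cells the log2 ratios of these genes, in the same order, were 0.05, −0.06, 0.32, −0.03 and 0.11. Apoe had 1.12, so a high r did not require a like difference between the libraries. Nr1h3 was rank 11 (r = 0.86), and Gpnmb was the least alike of the 10 (r = 0.41). This order depends on the small neutrophil-like and plasmacytoid gates, where 4 titled wt and 8 titled cko of the former, and 5 and 2 of the latter, also passed the C1q limit. Without those cells, only Sepp1 and Slc43a2 were still among the first 5.

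Those gates also gave the least certain Apoe values. Neutrophil-like cells (27 and 76 cells) had 37 Apoe UMIs titled wt and 1478 titled cko, of which 19 and 906 came from C1q-high cells. The log2 ratio was 4.05 (3.58 to 4.56), and 3.28 (2.60 to 4.04) without the C1q-high cells. With those cells included, the single highest neutrophil-like cell held 37.8% of the UMIs titled wt and 23.9% of those titled cko. Plasmacytoid dendritic cell-like cells (23 and 20) had 91 and 32 Apoe UMIs, of which 90 and 18 came from C1q-high cells. Their log2 ratio of −1.04 (−1.66 to −0.44) turned to 3.74 (1.02 to 9.14) without them, on 1 and 14 UMIs. Dendritic cell-like cells, whose gate leaves out C1q-high cells, had 44.6 and 126 CPM (1.50, 0.90 to 2.14), with 38.7% of the UMIs titled cko in a single cell. T, NK and B cells, which should lack Apoe, had 45.5 and 95.9 CPM. The part of free RNA in the dendritic values was not tested.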

How the data were processed

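Single-cell RNA-Seq of sorted CD45+ cells was analysed in 2 libraries. The authors deposited whole-number UMI counts per gene and cell for cells already called. Their processing notes name Cell Ranger, Seurat and mm10 without versions, and the gene annotation is not given in the sources used here. The members and gene lists were chosen with earlier results of these data known.

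Cells were kept if they had 200 genes or more and no more than 10% mitochondrial UMIs. Scrublet's automatic threshold marked 2 and 5 cells, so the 48 and 59 highest scorers (0.8% per 1000 cells) were removed, leaving 2397 and 2645. Depth was 24492486 and 27163485 UMIs.

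States were gated in order on summed raw UMIs: T or NK at least 3, B at least 5, other lineages at least 5, neutrophils (Csf3r, Cxcr2, Retnlg) at least 10, plasmacytoid markers at least 3, dendritic markers at least 2 (mature at least 5), C1q at least 15, Ly6c2 at least 3, Vcam1/Ccl8/Folr2 or Cd300e/Clec4b1 at least 3, interferon genes at least 15 and Ace/Treml4/Ear2 at least 2. Cut-offs were set after the distributions of the gate markers, not of the 10 genes, were seen. An exception was a C1q limit on the neutrophil and plasmacytoid gates. It was tried after Apoe in these gates had been seen, was briefly used as the main setting, and is kept only as an added alternative with both values printed.

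UMIs were summed per state and library and expressed as CPM. Log2 ratios have exact conditional binomial intervals, levels exact Poisson and shares Clopper-Pearson intervals (95%), which cover counting error only. Genes needed 100 UMIs over both libraries, and a fold of 0.25 or 0.5 on the log2 scale replaced a test. Shares used cells thinned to 3000 UMIs, which lost no cell. Likeness to Apoe was Pearson's r of log2(CPM + 1) over genes with at least 1000 UMIs. Named genes were all 10 members, the 3 highest and 3 lowest of each list, every regulator with 100 UMIs and the 5 genes most like Apoe. A few list genes that this rule names are not reported here, and the counts and medians of their lists include them. Gene coordinates came from GENCODE vM21 and promoter windows from RefSeq. The ratio and interval code was tested on simulated data. Python 3.11.15, numpy 2.4.6, pandas 2.3.3, scipy 1.17.1, scanpy 1.11.5 and matplotlib 3.10.9 were used.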

Additional observations from a re-analysis of the deposited data

Results flagged for a closer look

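Of the 10 genes, 4 were past the fold in opposite directions in different states, each with an interval clear of 0. The differences between states were not tested. A further count used, for each gene, only the states with at least 100 UMIs over both libraries. By it, 3 of 8 genes (Lpl, Nr1h3 and Trem2) had such a pair, as did 3.55% of 5918 genes. Lpl had log2 ratios of 1.49 in interferon-high monocyte-like and 0.67 in Cd300e/Clec4b1+ C1q-high cells, against −1.37 in other C1q-low and −1.09 in Vcam1/Ccl8/Folr2+ C1q-high cells. Nr1h3 had 1.20 in interferon-high monocyte-like and 0.30 in Cd300e/Clec4b1+ C1q-high cells, against −0.50 in other C1q-low cells. Trem2 had 0.45 in nonclassical monocyte-like cells against −0.46 in other C1q-low cells. Gpnmb had 1.01 in other C1q-low, 1.88 in Ly6c2+ C1q-high and 1.02 in Vcam1/Ccl8/Folr2+ C1q-high cells, against −4.59 in Cd300e/Clec4b1+ and −0.89 in other C1q-high cells. Under 100 UMIs lay Lpl (13 and 27 UMIs titled wt and cko) and Nr1h3 (20 and 34) in interferon-high cells. So did Gpnmb in Ly6c2+ (10 and 30), Vcam1/Ccl8/Folr2+ (20 and 46), Cd300e/Clec4b1+ (39 and 3) and other C1q-high cells (55 and 37).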

How the results depend on the processing

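No paired analysis was possible because each group is 1 library. With 1 pool per genotype, mouse, pool and genotype cannot be told apart, and genes under about 100 UMIs carry wide intervals. Apoe over all monocyte and macrophage cells had a log2 ratio of 1.09 with TMM factors, 1.09 with median-of-ratios size factors, 1.10 with totals without Lyz2 and genes over 1%, 1.14 with gate cut-offs divided by 2 and 1.24 as a mean over cells. These moved past its counting interval, and no scaling moved the median of all genes by over 0.1. At a fold of 0.5 the higher members were 2 and the lower 0, and as a mean over cells the lower were 1. The median of LXR targets was 0.27 as a mean over cells. Of the 5 genes most like Apoe, 3 were shared with Spearman's correlation and 2 with the gates without C1q-high cells, an alternative chosen after seeing the data, which also reversed Apoe in plasmacytoid dendritic cell-like cells to 3.74. Lpl as a mean over cells was 0.015. With gates on cells thinned to 3000 UMIs, Lpl in interferon-high cells was −1.39, Plin2 in nonclassical cells −0.057 and Fabp5 in Ly6c2+ C1q-high cells 0.027. With cut-offs divided by 2, Trem2 in nonclassical cells was −0.024 and Fabp5 in other C1q-low cells 0.19, and with cut-offs multiplied by 2, Nr1h3 in other C1q-low cells was 0.048. The cause of these was not tested.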

Other observations

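Over C1q-high cells thinned to 3000 UMIs, the 20 genes with the highest Spearman correlation to Apoe were ranked in each library, after the values were seen and as a description. Of these, 10 were shared between the libraries: Cd63, Ctsb, Ctsl, Dab2, Itm2b, Lgmn, Ms4a7, Pf4, Sepp1 and Trf. Sepp1, which encodes a secreted selenium carrier, had the highest values, 0.47 titled wt and 0.55 titled cko. The cells of a library share its depth and free RNA, and most of these genes are abundant, so no gene is singled out.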
